A study of Homo sapiens with 15 samples.

Results

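The response of MOLM-14 cells to DHE after 6 h was measured by RNA-Seq in 4 libraries, 2 from cells given vehicle and 2 from cells given DHE. MOLM-14 is a line of human acute myeloid leukemia (AML) cells with an MLL-AF9 fusion, and all libraries come from it, so the data describe a single line. DHE (dihydroergotamine) is an ergot alkaloid used against migraine. It was added at 10 uM, and the vehicle was DMSO, its solvent, for the same time. Of 57964 entries in the deposited table, 13582 reached 1 TPM in at least 2 of these 4 libraries and were tested. TPM is a gene's share of a library's transcripts after allowing for transcript length, so a fall is a fall in share, and fewer cells with a transcript cannot be told apart from less of it per cell. The series also holds 4 libraries from cells electroporated with GFP or NR4A1 in vitro-transcribed RNA, 2 of each, which enter here in the estimate of the spread and in the comparison of the DHE effect with the NR4A1 effect.

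DHE acts on receptors for serotonin, dopamine and noradrenaline, which signal through G proteins and, in part, through cyclic AMP. In AML cells with MLL fusions, MYC, a transcription factor that drives growth, keeps up the genes for ribosome production, nucleotide synthesis and protein folding, and the HOXA genes, FLT3 and BCL2 hold cells in an immature and surviving state. NR4A1 and NR4A3 are nuclear receptors that restrain AML, and the study asked how DHE treatment changes gene expression in such cells.

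The libraries carried the myeloid identity of the line. Of 17 myeloid markers 16 were tested, and their summed level lay between 597 and 652 scaled TPM in the 4 libraries. Of 15 erythroid and megakaryocyte markers 1 was tested, and of 14 epithelial and fibroblast markers 2 were. Of 14 lymphocyte markers 3 were tested, with sums of 6.36 to 7.03 scaled TPM with vehicle and 7.5 to 9.96 with DHE, and 2 of them, CD8A and TRAC, were called higher. Without the second DHE library 1 was called higher and 1 lower. TPM keep no read numbers, so the depth of each library is unknown and precision rests on the spread between libraries. The second DHE library stood apart: transcripts related to ribosomal RNA took 6.07% of it, against 0.575% to 0.976% in the other 3, and 13934 entries reached 1 TPM against 12924 to 13116. The labels do not say whether the libraries came from separate cultures, so p-values measure the spread between these samples, which may be technical.

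With DHE, 1319 genes were called higher (9.71% of those tested) and 1459 lower (10.7%), where a call is a limma adjusted p under 0.05 by the Benjamini-Hochberg method with a change of more than 1.5-fold. The counts of list members given below stand against these shares. By adjusted p alone, 5084 genes passed (37.4%). Both DHE libraries lay above both vehicle libraries for 5240 genes (38.6%) and below both for 4565 (33.6%). Of the genes called higher, 281 reached the 1 TPM minimum only through the DHE libraries, and of those called lower 114 only through the vehicle libraries, so a difference was built into their selection. Of the genes described below, the former include GPAT3, STAT4, CD86, CRLF2, THBS1, VGF, PDE4B, PDE3A, CCL24, CCL22, CTSK, PHLDA1, IFIT3 and IQSEC3. The latter include STC2, FOSL1 and DDN. Without the second DHE library, 885 genes were called higher and 1372 lower. Scaling the libraries by their upper quartile gave 1791 higher and 1162 lower, so that 60.7% of calls were higher against 47.5% in the main fit.

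By their mean over the 4 libraries, the genes called lower had a median level of 13.2 scaled TPM, against 5.09 for the genes called higher and 9.19 for all tested. With genes ranked by that mean into 4 equal bins, in the lowest bin 14.3% were called higher and 7.18% lower, while in the highest bin, from 22.6 scaled TPM up, 4.36% were called higher and 14.3% lower. Summed over the genes called lower, the level went from 53012 scaled TPM with vehicle to 27263 with DHE. Over those called higher it went from 9853 to 20774. Over 2-fold 487 called genes rose and 592 fell, while over 4-fold 125 rose and 78 fell, and over 8-fold 44 rose and 9 fell. The filter admitted 488 entries that reached 1 TPM only in both DHE libraries, against 185 only in both vehicle libraries. Whether this shaped the counts of large changes was not tested. The protein-coding genes called lower also spanned shorter stretches of the genome, with a median of 19.2 kb against 42.7 kb for those called higher and 30.5 kb for all tested.

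**Figure D1:**
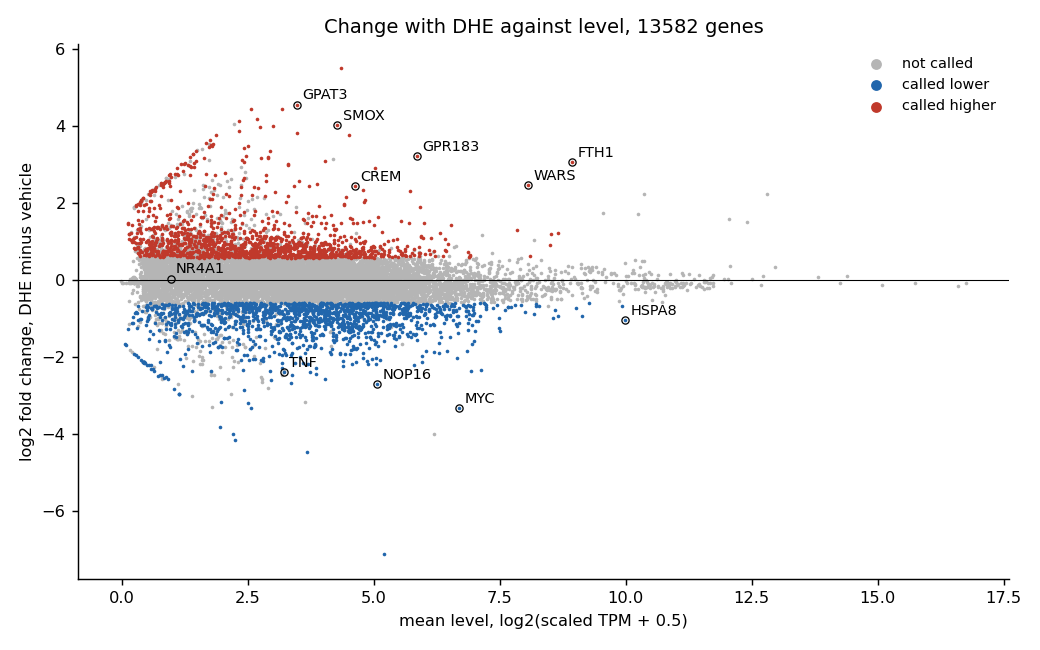
Log2 fold change (DHE minus vehicle, y axis) against the mean level over the 4 libraries (x axis, log2 of scaled TPM + 0.5) for 13582 genes, red called higher, blue called lower and gray not called. MYC (-3.32) is the lowest of the marked genes and GPAT3 (4.56) the highest, and red points thin out toward high levels, where 4.36% of the highest bin by mean level were called higher.

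MYC had the smallest p of all genes. It stood at 191 and 183 scaled TPM with vehicle and at 18.6 and 18 with DHE. Both treated libraries lay far below the controls, with a log2 fold change of -3.32 (standard error 0.06, limma adjusted p = 2.9e-05). Of 11 tested members of the MYC network, 3 others were called, and all 3 are MXD proteins, which compete with MYC for its partner MAX and repress the same sites: MXD3 (0.85), MXD4 (0.81) and MXD1 (0.73) rose. MXD1 lost its call when any of the 4 vehicle and DHE libraries was left out, with log2 fold changes of 0.66 to 0.81 (limma adjusted p of 0.066 to 0.13). MAX itself was at 12.8 and 12.4 scaled TPM with vehicle and at 8.81 and 8.75 with DHE, under the 1.5-fold limit. Among other genes named after their values were seen, TFAP4, a transcription factor that MYC activates, fell from 14.5 and 14.6 to 2.54 and 2.66 scaled TPM (log2 fold change -2.28).

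The receptors that the study is about were low throughout. NR4A1 stood at 1.22 and 1.67 scaled TPM with vehicle and at 1.46 and 1.5 with DHE, so the groups overlapped, with a log2 fold change of 0.04 (standard error 0.11, limma adjusted p = 0.83). NR4A3 was at 0.00472 and 0.00653 scaled TPM with vehicle and at 0.195 and 0.231 with DHE. NR4A2 was at 0.522 and 0.410 with vehicle and at 0.642 and 0.862 with DHE. Both DHE libraries were above both vehicle libraries for NR4A2 and NR4A3, but neither gene reached the minimum for a test.

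Genes that assemble ribosomes in the nucleolus fell almost as a whole. Of 60 such genes, all tested, 57 were called lower and none higher, against 10.7% lower over all genes, and the median log2 fold change was -1.36 against 0.04 for all genes. Their summed level was 5736 and 5684 scaled TPM with vehicle and 3520 and 2869 with DHE. NOP16, of the large subunit pathway, was at 58.0 and 57.7 scaled TPM with vehicle and at 8.87 and 8.02 with DHE (log2 fold change -2.71, standard error 0.07, limma adjusted p = 6.2e-05). The 2 groups lay far apart and the libraries within each were close. MYBBP1A, a nucleolar regulator of ribosomal RNA transcription, was at 50.2 and 45.4 with vehicle and at 10.1 and 10.2 with DHE (-2.18), and UTP20, of the small subunit pathway, was at 23.1 and 23.5 and at 6.49 and 6.6 (-1.76). PES1, of the large subunit pathway, fell by 1.51, RRP9 of the U3 particle by 2.56 and RRS1 by 2.39. The other called members fell by 0.60 to 2.19. Of the members that were not called, FBL, the methyltransferase of box C/D particles, was at 223 and 223 scaled TPM with vehicle and at 180 and 199 with DHE, and NPM1, a nucleolar chaperone, was at 1961 and 1986 and at 1776 and 1293. Without the second DHE library 54 members were called lower.

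The short sequence CACGTG, the E-box that MYC and MAX bind and that other factors of their class bind too, was looked for on the promoters. RefSeq windows on GRCh38.p14, 250 bases before to 50 after the start, were found for 8945 tested genes. CACGTG, which reads the same on both strands, was in 41.5% of 53 nucleolar promoters, in 18.6% of 1037 promoters of genes called lower, in 8.02% of 885 of genes called higher, and in 10.7% of all 8945. The share over all 27305 promoters of the table was 7.43%. The E-box was also in 33.3% of 24 lysosomal promoters and 30.4% of 23 promoters of cyclic AMP genes, lists in which 0 and 2 members were called lower. Stretches upstream of the start are shown for 5 of the called nucleolar genes with the motif there, because this list fell most, with CACGTG in capitals and up to 40 bases on each side.
UTP20 (chr12:101280055-101280104, plus strand): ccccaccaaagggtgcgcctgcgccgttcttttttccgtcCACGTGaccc
UTP18 (chr17:51260417-51260502, plus strand): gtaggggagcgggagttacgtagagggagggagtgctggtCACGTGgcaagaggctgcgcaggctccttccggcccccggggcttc
IMP4 (chr2:130342654-130342739, plus strand): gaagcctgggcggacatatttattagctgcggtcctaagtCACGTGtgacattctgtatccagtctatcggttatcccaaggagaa
UTP14A (chrX:129905914-129905968, plus strand): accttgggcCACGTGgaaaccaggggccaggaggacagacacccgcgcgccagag
NAT10 (chr11:34105574-34105628, plus strand): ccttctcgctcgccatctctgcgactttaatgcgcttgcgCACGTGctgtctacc
The E-box began 10 bases before the start in UTP20, 89 in UTP18, 203 in IMP4, 241 in UTP14A and 15 in NAT10. All 5 genes were called lower: UTP18 fell by 1.04 on the log2 scale, IMP4 by 1.15, UTP14A by 1.09 and NAT10 by 1.25. A match is a description of the letters and does not show that a factor was bound.

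**Figure D2:**
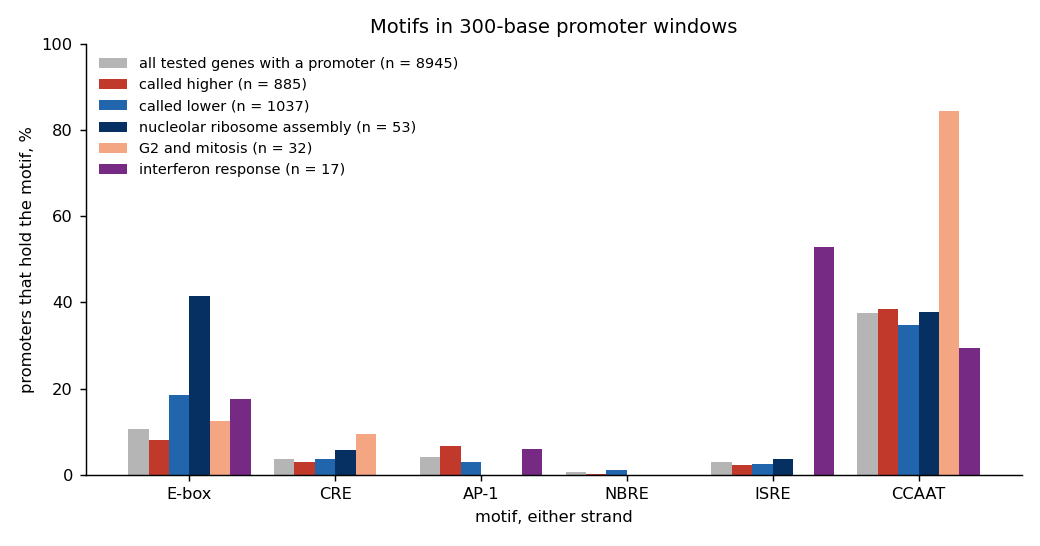
Share of promoters (y axis, %) that hold each of 6 motifs on either strand (x axis), for all tested genes, genes called higher and lower, and 3 gene lists. The E-box bar is tallest for nucleolar ribosome assembly at 41.5%, the CCAAT bar for G2 and mitosis at 84.4% and the ISRE bar for the interferon response at 52.9%.

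The polymerases that transcribe ribosomal RNA and tRNA fell in part, and no ribosomal protein gene was called. Of 38 tested genes of RNA polymerase I and III, 15 were called lower and none higher (median log2 fold change -0.47). POLR1B, the second largest subunit of polymerase I, was at 37.2 and 39.3 scaled TPM with vehicle and at 10.2 and 11.4 with DHE (log2 fold change -1.78, standard error 0.07, limma adjusted p = 7.6e-05). The largest subunit POLR1A (-1.35), the subunit POLR1C, shared by both polymerases (-1.78), and POLR3E (-1.51) fell too. CD3EAP, also a polymerase I subunit, was at 17.2 and 17.4 with vehicle and at 2.5 and 2.09 with DHE (-2.68). Of 76 cytosolic ribosomal protein genes none was called in either direction. Their log2 fold changes ran from -0.31 to 0.05 with a median of -0.12, and their sum was 169300 and 168909 scaled TPM with vehicle and 165404 and 148610 with DHE. Small nucleolar RNAs, which guide ribosomal RNA modification, had 34 of 210 entries called lower and 4 higher, with a median of -0.31. These are 16.2% and 1.90%, against 10.7% and 9.71% over all genes.

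Enzymes that load tRNAs fell in part. Of 23 cytosolic aminoacyl-tRNA synthetases and their partners, 10 were called lower and 1 higher (median -0.53). FARSA, a chain of the phenylalanine enzyme, was at 123 and 123 scaled TPM with vehicle and at 35.6 and 30.7 with DHE (-1.88), and the other chain, FARSB, fell by 1.43. WARS, the tryptophan enzyme, which interferon also induces, was at 81.1 and 81.5 with vehicle and at 490 and 416 with DHE (log2 fold change 2.47, standard error 0.09, limma adjusted p = 6.4e-05). WARS was the only member above 0.

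Genes of the mitochondrial ribosome fell in part. Of 78 mitochondrial ribosomal protein genes 23 were called lower and none higher (median -0.46), and 77 had a negative log2 fold change. MRPS12 was at 74.1 and 75.6 scaled TPM with vehicle and at 31.8 and 26.4 with DHE (-1.35), and MRPS2, MRPS26 and MRPL24 fell by 1.28, 1.23 and 1.17. Without the first DHE library 35 were called lower, and 16 without the second. Of 74 nuclear genes of the respiratory chain 2 were called lower, ATP5G1 (-1.05) and UQCR10 (-0.63), and UQCR10 missed the 1.5-fold limit without the first DHE library (-0.58). None of 13 mitochondrially encoded genes was called, and their sum was 2491 and 4134 scaled TPM in the 2 DHE libraries against 3033 and 2910 with vehicle. TWNK, the helicase of mitochondrial DNA, was at 24.8 and 23.2 with vehicle and at 3.55 and 4.59 with DHE (-2.43).

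**Figure D3:**
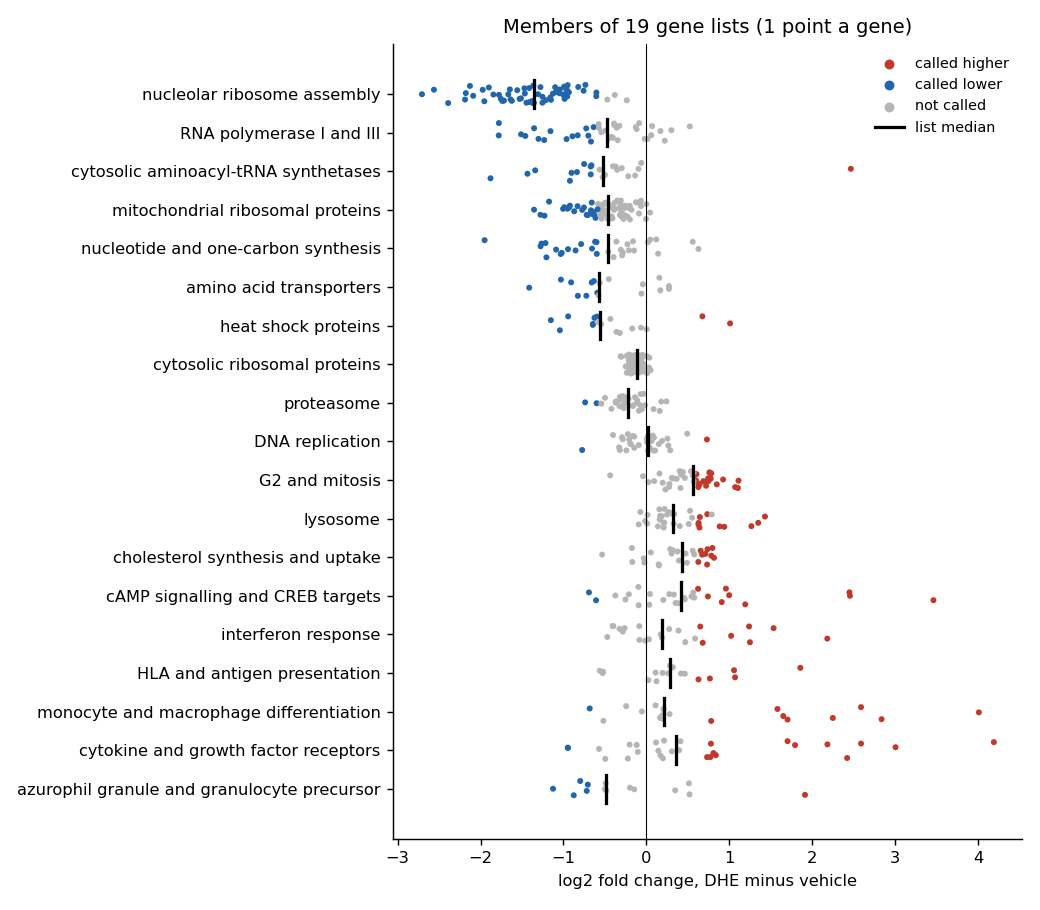
Log2 fold change (x axis, DHE minus vehicle) of each tested member of 19 gene lists (1 point a gene, y axis lists, vertical jitter only for display), colored by call, with a black bar at each list's median. Nucleolar ribosome assembly lies lowest with a median of -1.36, cytosolic ribosomal proteins cluster near their median of -0.12, and G2 and mitosis has the highest median shown at 0.56.

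Of 31 genes of nucleotide and one-carbon synthesis 15 were called lower and none higher (median -0.46). DHODH, the pyrimidine enzyme of the mitochondrial inner membrane, was at 13.7 and 13.9 scaled TPM with vehicle and at 3.62 and 2.84 with DHE (log2 fold change -1.95, standard error 0.12, limma adjusted p = 2.0e-04). In the purine pathway PAICS was at 131 and 126 with vehicle and at 63.0 and 62.0 with DHE (-1.03), and PPAT, GART and PFAS fell by 1.22, 1.09 and 1.28. The pyrimidine enzymes CAD and UMPS fell by 1.26 and 1.21. Of 17 amino acid transporters 8 were called lower and none higher (median -0.58), led by the glutamine carrier SLC1A5 at 57.1 and 53.8 with vehicle and 20.1 and 20.9 with DHE (-1.41). Without the first vehicle library 5 transporters were called lower. Of 24 genes of glycolysis 3 were called lower (12.5%, against 10.7% over all genes) and 1 higher (4.17%), and 6 were called lower without the first DHE library. HK2, which traps glucose in the cell, was at 8.99 and 9.57 with vehicle and at 4.14 and 2.27 with DHE (-1.45), and the lactate carrier SLC16A1 fell by 1.22. TXNIP, which restrains glucose uptake, was called higher at 0.66, though not without the first DHE library (0.54).

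Polyamine genes moved in opposite directions. The 3 called synthesis enzymes were lower: ODC1, which makes putrescine, was at 78.2 and 78.1 scaled TPM with vehicle and at 28.7 and 26.5 with DHE (-1.49), SRM fell by 1.56 and AMD1 by 0.85. The 2 called breakdown enzymes were higher. SMOX, which oxidizes spermine, was at 2.02 and 1.49 with vehicle and at 34.8 and 37.4 with DHE (log2 fold change 4.03, standard error 0.13, limma adjusted p = 6.2e-05). SAT1, which acetylates spermine and spermidine, was at 6.71 and 7.39 and at 63.0 and 50.4 (2.91). The 9 tested members had a median of -0.13, and each of these 5 calls held without any single library.

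Genes of iron storage and uptake also moved apart. Their pairing was noticed after the values were seen. FTH1, the ferritin heavy chain that stores iron, was at 107 and 101 scaled TPM with vehicle and at 747 and 1006 with DHE (log2 fold change 3.06, standard error 0.25, limma adjusted p = 5.0e-04), the largest rise in TPM of any called gene. TFRC, the transferrin receptor that brings iron in, was at 83.7 and 80.4 with vehicle and at 35.5 and 25.9 with DHE (-1.42). The light chain FTL was at 1084 and 1091 and at 1675 and 1423, a log2 fold change of 0.51 that is under the 1.5-fold limit. FTH1 has near-identical pseudogene copies among which Salmon divides reads, so its level is uncertain. MT2A, a metallothionein that binds metal ions, rose by 1.49.

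Heat shock genes fell in part. Of 18 heat shock genes 8 were called lower and 2 higher (median -0.57), and 4 were called lower without the second DHE library. HSPA8, the constitutive HSP70, had the largest fall in TPM among the called genes, from 1344 and 1393 to 718 and 614 (-1.04). HSPE1, the co-chaperonin of mitochondria, was at 170 and 171 with vehicle and at 87.4 and 67.1 with DHE (-1.15). BAG3 and DNAJB4 rose by 0.68 and 1.01, but 1 of these calls was lost without the first vehicle or the second DHE library and both without the second vehicle library. Of 22 genes of endoplasmic reticulum chaperones and their control 2 were called lower (9.09%) and 1 higher (4.55%). Over all genes these shares were 10.7% and 9.71%. The median of the 22 was 0.05, and 15 had a positive log2 fold change. There the chaperone CALR fell by 0.92 and the transcription factor XBP1 by 1.02, while ERN1, the sensor kinase that splices XBP1 transcripts, was at 3.24 and 2.68 and at 7.66 and 8.55 (1.32). Without the first DHE library 4 of these genes were called higher. Of 18 genes of the integrated stress response 4 were called lower (22.2%), among them TRIB3 (-1.31) and STC2 (-2.05), and 2 higher (11.1%). The 2 rises did not both hold when any library but the second DHE library was left out. None of 35 proteasome genes was called higher, and 2 were called lower, PSMA6 and PSMA5, neither of which held without the first vehicle library (limma adjusted p of 0.056 and 0.11).

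Sterol synthesis genes rose modestly in part, while most genes of triglyceride synthesis and lipid droplets were not called. Over all genes 9.71% were called higher and 10.7% lower. Of 26 genes of cholesterol synthesis, uptake and export 9 were called higher and none lower (median 0.43), and 5 were called higher without the first vehicle library. MVK was at 8.71 and 9.70 scaled TPM with vehicle and at 17.0 and 16.1 with DHE (0.82). HMGCS1, called at 0.65, missed the 1.5-fold limit without the second DHE library (0.58). GPAT3, the acyltransferase that opens glycerolipid synthesis, was at 0.361 and 0.444 with vehicle and at 22.7 and 18.9 with DHE (log2 fold change 4.56, standard error 0.16, limma adjusted p = 6.2e-05). It reached the minimum for a test only through the DHE libraries. The fatty acid scavenger receptor CD36 was at 4.54 and 4.21 and at 14.3 and 12.1 (1.49). GPAT3 and CD36 were the 2 genes called higher of 18 tested for triglyceride synthesis and lipid droplets (11.1%), and none was called lower. The median of the 18 was -0.01, and 10 had a negative log2 fold change. Of 34 lysosomal genes 10 were called higher (29.4%) and none lower (median 0.32). They were led by the cathepsins CTSL (1.43), CTSK (1.35) and CTSB, at 61.0 and 59.2 with vehicle and 112 and 119 with DHE (0.94). TFE3, a transcription factor of lysosomal genes, was at 3.21 and 3.09 and at 7.89 and 8.67 (1.27).

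Genes of the cyclic AMP pathway were among the steepest rises. Of 28 tested genes of the pathway and targets of CREB factors, 9 were called higher and 2 lower (median 0.42). These are 32.1% and 7.14%, against 9.71% and 10.7% over all genes. VGF, a secreted peptide precursor that CREB factors activate, was at 0.0370 and 0.0656 scaled TPM with vehicle and at 6.54 and 4.74 with DHE (log2 fold change 3.46, standard error 0.25, limma adjusted p = 3.5e-04). CREM, a cyclic AMP-responsive factor, was at 6.20 and 8.29 with vehicle and at 42.0 and 40.8 with DHE (2.45). PDE4B, a phosphodiesterase that degrades cyclic AMP, was at 0.0582 and 0.139 and at 2.84 and 2.71 (2.45). VGF and PDE4B reached the minimum for a test only through the DHE libraries. The catalytic subunit PRKACA of protein kinase A rose by 1.00. PKIB, an inhibitor of that kinase, was outside the list and was at 2.77 and 2.5 with vehicle and at 42.0 and 41.8 with DHE (3.76). PDE3A, another phosphodiesterase, named after its values were seen, went from 0.407 and 0.406 to 9.51 and 9.21 (3.44). PDE3A too reached the minimum for a test only through the DHE libraries. Without the second vehicle library 5 members were called higher and 0 lower.

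Of 23 promoters of the cyclic AMP list, 3 held TGACGTCA, the cyclic AMP response element that CREB factors bind. This is 13.0%, against 3.57% of all tested genes. The list takes in targets of CREB factors, so its share was in part built in. The element was in 3.05% of promoters of genes called higher and 3.66% of those called lower. It also reads the same on both strands. The stretch of VGF is shown because VGF was the only called member with the element upstream of its start, 79 bases before it, in capitals here.
VGF (chr7:101165601-101165688, minus strand): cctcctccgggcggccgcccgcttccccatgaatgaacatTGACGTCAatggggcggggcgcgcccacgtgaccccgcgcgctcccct

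The receptors that bind ergots were nearly absent. Of 29 aminergic receptor genes 3 reached the minimum for a test. Of 18 genes that tune G protein signaling 5 were called higher (27.8%) and 3 lower (16.7%), against 9.71% and 10.7% over all genes. GRK5, a kinase that desensitizes receptors, was at 2.10 and 2.00 scaled TPM with vehicle and at 4.69 and 4.89 with DHE (1.05), while the arrestin ARRB1 was at 28.5 and 28.6 and at 11.5 and 13.4 (-1.17). Without the second vehicle library 2 were called higher. Of 16 feedback genes of ERK signaling 3 were called higher and 3 lower (18.75% each, median -0.02), and fewer were called higher without the first or the second DHE library. PHLDA1 (1.23) and ERRFI1 (1.18) rose, and DUSP2, a phosphatase, fell from 11.7 and 11.5 to 2.76 and 2.39 (-1.98). Of 21 tested immediate early and AP-1 genes 5 were called higher and 5 lower (23.8% each, median -0.09). In the AP-1 family FOSL1 (-1.93), BATF3 (-1.65) and JUNB (-0.79) were called lower. Among the immediate early genes KLF10 (0.90) and BTG2 (1.04) were called higher.

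**Figure D4:**
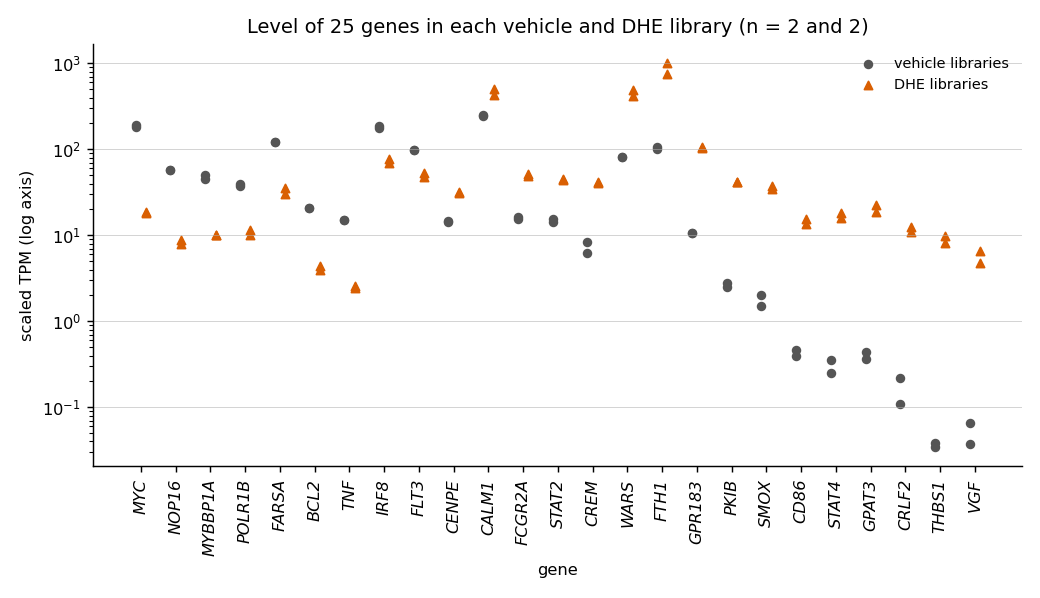
Scaled TPM (log y axis) of 25 genes (x axis) in each of the 2 vehicle libraries (gray circles) and 2 DHE libraries (orange triangles). The genes shown were picked from the named genes, which were chosen on their DHE change, so groups that do not overlap were built in. Over all genes both DHE libraries lay above both vehicle libraries for 38.6% and below both for 33.6%. MYC fell from 191 and 183 to 18.6 and 18, and STAT4 rose from 0.350 and 0.253 to 18 and 15.8.

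Surface receptors and other genes of monocytes and macrophages were among the largest rises. Of 19 tested genes that mark monocytes and macrophages 8 were called higher and 1, TLR2, lower, and 6 were called higher without the second DHE library. CD86, a costimulatory ligand, was at 0.397 and 0.468 scaled TPM with vehicle and at 15.3 and 13.7 with DHE (log2 fold change 4.01, standard error 0.15, limma adjusted p = 6.2e-05). It reached the minimum for a test only through the DHE libraries. FCGR2A, an Fc receptor, was at 16.2 and 15.4 and at 52.3 and 49.2 (1.65). TREM1 and TREM2, receptors of innate immune cells, rose by 2.84 and 2.59, CD83 by 1.58, and CSF1R, the receptor for macrophage colony-stimulating factor, by 1.70. The median over the list was 0.21. In the opposite direction, 5 of 14 genes of azurophil granules and granulocyte precursors were called lower and 1 higher (median -0.49). ELANE, neutrophil elastase, was at 652 and 637 with vehicle and at 385 and 398 with DHE (-0.72), MPO fell by 0.71 and MS4A3 by 1.13. SERPINB1, an inhibitor of elastase, was at 25.5 and 24.2 and at 97.9 and 92.1 (1.91).

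Cytokine receptors rose in number. Of 28 tested receptors for cytokines and growth factors 12 were called higher and 2 lower (median 0.35), and 8 were called higher without the second DHE library. CRLF2, a receptor chain for TSLP, was at 0.222 and 0.11 scaled TPM with vehicle and at 12.4 and 10.9 with DHE (4.19). Its partner chain IL7R was at 1.41 and 1.98 and at 17.0 and 16.9 (3.01). IL10RA (2.42), AXL (2.18) and KIT (1.79) rose as well. FLT3, a receptor kinase on which many AMLs depend, was at 97.8 and 97.4 with vehicle and at 53.1 and 47.9 with DHE (-0.95). GPR183, the oxysterol receptor, was at 10.7 and 10.7 and at 105 and 103 (log2 fold change 3.22, standard error 0.10, limma adjusted p = 6.2e-05). The chemokine CCL24 was at 0.449 and 0.414 and at 10.9 and 8.89 (3.47), and the chemokine CCL22 at 0.104 and 0.0990 and at 3.67 and 6.62 (3.18). The 4 chemokine genes called higher were 1 without the first or the second DHE library. Among adhesion genes THBS1, a matrix protein, was at 0.0345 and 0.0379 and at 8.17 and 9.73 (4.13), while the integrin chain ITGA4 was at 33.7 and 34.2 and at 10.7 and 11.2 (-1.59). CRLF2, CCL24, CCL22 and THBS1 reached the minimum for a test only through the DHE libraries.

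Some transcription factors of the interferon and cytokine pathways rose, and so did some interferon response genes. STAT4 was at 0.350 and 0.253 scaled TPM with vehicle and at 18 and 15.8 with DHE (log2 fold change 4.44, standard error 0.16, limma adjusted p = 6.2e-05). It reached the minimum for a test only through the DHE libraries. STAT2 was at 14.4 and 15.7 and at 45.0 and 43.9 (1.53), and its partner IRF9 at 3.87 and 3.11 and at 9.07 and 8.81 (1.25). Of 23 tested interferon response genes 7 were called higher and none lower (median 0.19). MX2, an antiviral GTPase, was at 1.08 and 1.06 and at 5.81 and 7.54 (2.18), while ISG15 was at 8.58 and 8.33 and at 13.8 and 10.3 (0.47) and was not called. PRDM1, a repressor of differentiating leukocytes named after its values were seen, went from 0.933 and 1.07 to 13.0 and 13.0 (3.17). IRF8, a factor of the monocyte lineage, was at 186 and 179 with vehicle and at 77.4 and 68.8 with DHE (-1.32). Over 36 tested myeloid transcription factors, 7 were called higher (19.4%, against 9.71% over all genes) and 4 lower (11.1%, against 10.7%). Their median was 0.03, and fewer were called higher without the second DHE library. Of 17 HLA and antigen presentation genes 5 were called higher, led by HLA-DRA at 1.59 and 1.53 and at 6.76 and 7.18 (1.86), and 1 to 3 were called higher when any of the 4 vehicle and DHE libraries was left out.

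The ISRE core, which STAT and IRF factors bind, was searched on either strand as paired GAAA runs with any 2 bases between. Of 17 interferon gene promoters 9 held it, against 3.0% of all tested genes. Its share was 2.37% among genes called higher and 2.60% among genes called lower. Of the called interferon genes searched for it, only IFIT3 held it upstream of its start. The stretch of IFIT3 shows 2 copies in capitals, read here on the opposite strand as a pair of TTTC runs. IFIT3 was at 0.442 and 0.503 scaled TPM with vehicle and at 1.20 and 0.923 with DHE (0.68), and it reached the minimum for a test only through the DHE libraries.
IFIT3 (chr10:89327835-89327924, plus strand): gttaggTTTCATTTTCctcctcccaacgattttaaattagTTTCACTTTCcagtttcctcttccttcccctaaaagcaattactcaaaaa

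Of 17 NF-kB and inflammatory genes 3 were called lower and 2 higher (17.6% and 11.8%, against 10.7% and 9.71% over all genes, median -0.03), and 1 was called lower without the second vehicle library. TNF, the cytokine, was at 15.2 and 15.1 scaled TPM with vehicle and at 2.55 and 2.44 with DHE (log2 fold change -2.39, standard error 0.07, limma adjusted p = 6.2e-05). NFKB2 was at 2.72 and 2.01 and at 6.94 and 6.57 (1.35), and RELB, its partner in the noncanonical pathway, rose by 1.15. In the Notch pathway the ligand JAG1 was at 49.83 and 49.998 and at 11.4 and 12.1 (-2.04). Of 13 clock genes 6 were called lower, among them the repressors NR1D1 (-1.27) and NR1D2 (-1.64) and all 3 PER genes (-0.62 to -1.05), and 3 higher, among them ARNTL (1.01), which those repressors hold down. Without the second vehicle library 3 clock genes were called lower.

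Survival and cell cycle genes changed in part. BCL2, which blocks apoptosis, was at 20.8 and 20.8 scaled TPM with vehicle and at 3.99 and 4.40 with DHE (log2 fold change -2.18, standard error 0.07, limma adjusted p = 6.2e-05). BMF, which opposes BCL2, was at 2.96 and 2.63 and at 17.6 and 17.6 (2.46). Of 14 tested genes of the BCL2 family 3 were called lower and 1 higher (median -0.03). These are 21.4% and 7.14%, against 10.7% and 9.71% over all genes. Besides BCL2, those called lower were BIK (-0.86) and BID (-0.60), which promote apoptosis. Without the second DHE library BID was under the 1.5-fold limit (-0.47). MCL1 was at 49.4 and 47.5 and at 57.3 and 51.1 and was not called. Of 28 tested genes of the MLL-AF9 program 14.3% were called lower and 7.14% higher, near the 10.7% and 9.71% over all genes, and 22 had a positive log2 fold change (median 0.28). The 4 called lower were BCL2, FLT3, CDK6 (-0.95) and MYB (-0.68), and the 2 called higher were HOXA5 (0.86) and TCF4 (1.24), of which 1 was lost without the first vehicle library or either NR4A1 library. HOXA9 was at 25.9 and 27.0 and at 43.2 and 31.7 (0.48) and MEIS1 at 25.2 and 27.6 and at 34.3 and 36.5 (0.42), both under the 1.5-fold limit. CDK4 was at 141 and 141 and at 70.8 and 59.6 (-1.11) and CCND2 fell by 1.22, while the inhibitors CDKN1C (1.86), CDKN1A (0.70) and CDKN2C (0.70) and the cyclin CCNG2, found in resting cells (2.46), rose. Of 36 DNA replication genes 1 was called higher, E2F2, and 1 lower, POLD2 (median 0.02), and without the second vehicle library 2 were called higher.

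Genes of G2 and mitosis rose in part. Of 40 tested, 18 were called higher and none lower, against 9.71% higher over all genes, 38 had a positive log2 fold change, and the median was 0.56. The count was 14 to 19 when any single library was left out. CENPE, a kinesin of the kinetochore, was at 14.5 and 14.3 scaled TPM with vehicle and at 32.0 and 31.5 with DHE (log2 fold change 1.11, standard error 0.06, limma adjusted p = 1.8e-04). CDC25C, the phosphatase that triggers mitosis, was at 8.17 and 8.03 and at 17.9 and 17.2 (1.07). MKI67 was at 42.4 and 45.1 and at 76.6 and 117 (1.10), with the second DHE library well above the first. CCNB1, cyclin B1, was at 124 and 126 and at 175 and 156 (0.40) and PLK1 at 37.4 and 35.5 and at 54.2 and 51.9 (0.54), and neither was called.

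The box CCAAT, bound by NF-Y, was in 27 of 32 promoters of these mitotic genes, which is 84.4%, on either strand (its other strand reads ATTGG), against 37.7% of all tested genes, 38.5% of genes called higher and 34.8% of genes called lower. It was in 76.2% of 21 promoters of the cholesterol genes as well. Stretches of 3 of the called mitotic genes that hold it upstream of the start are shown, because the list held it most often, CCAAT or ATTGG in capitals. It began 45 bases before the start in KIF18A, 22 in KIF14 and 64 in KIF23, kinesins that rose by 0.93, 0.74 and 0.69.
KIF18A (chr11:28108157-28108241, minus strand): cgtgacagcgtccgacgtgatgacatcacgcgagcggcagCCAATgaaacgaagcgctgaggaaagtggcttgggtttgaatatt
KIF14 (chr1:200620752-200620813, minus strand): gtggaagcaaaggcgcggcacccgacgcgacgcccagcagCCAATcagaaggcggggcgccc
KIF23 (chr15:69414245-69414329, plus strand): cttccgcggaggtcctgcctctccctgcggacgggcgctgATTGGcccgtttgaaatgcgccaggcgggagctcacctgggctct
The AP-1 core TGANTCA was in 4.15% of promoters of all tested genes, 6.78% of those called higher and 2.99% of those called lower. AAAGGTCA, the element NR4A receptors bind, was in 0.749%, 0.226% and 1.06%.

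Some genes went from nearly silent to clearly measured, or back. Among called entries 48 were under 0.5 TPM in both vehicle libraries and at 2 TPM or more in both DHE libraries. GPAT3, STAT4, CD86, CRLF2 and IQSEC3, a guanine nucleotide exchange factor at 0.216 and 0.374 scaled TPM with vehicle and at 10.9 and 13.2 with DHE (3.98), were the protein-coding genes with the highest DHE level among them. In the opposite direction 17 entries were called. Of the 6 with the highest vehicle level, DDN, a protein of synapses and kidney podocytes, was at 3.99 and 3.75 and at 0.319 and 0.385 (-2.36), and the others were unnamed or small RNA entries. Such entries also gave several of the largest fitted changes, with a wide spread. AL162151.3 was at 93.1 and 51.7 with vehicle and listed at 0 in both DHE libraries, and RP11-452N17.1 was listed at 0 in both vehicle libraries and at 72.9 and 6.53 with DHE. The call of AL162151.3 was lost without either DHE library (limma adjusted p of 0.095 and 0.10).

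DHE and NR4A1 RNA were compared gene by gene, as the difference of their effects. With NR4A1 RNA 673 genes were called against GFP RNA (4.96% of those tested). The difference passed for 2803 genes (20.6%, limma adjusted p under 0.05). The first GFP RNA library stood apart, with 24.5% of it in transcripts related to ribosomal RNA against 2.14% in the second and 0.938% and 0.571% in the NR4A1 libraries. Without it, a setting chosen after seeing the data, the difference passed for 2197 genes, 1942 of which also passed with all libraries. The genes named here were chosen on their DHE change, so no count over them is read. MYC fell by 3.32 with DHE and by 0.92 with NR4A1 RNA, a difference of -2.40 (limma adjusted p = 8.3e-04). TREM2 rose less with DHE (2.59) than with NR4A1 RNA (4.95, limma adjusted p of the difference 0.0013). AXL, a receptor kinase, rose by 2.18 with DHE and fell by 1.20 with NR4A1 RNA (limma adjusted p of the difference 9.4e-04), and BIK, which promotes apoptosis, fell by 0.86 with DHE and rose by 0.98 with NR4A1 RNA (0.0012). For PECAM1, an adhesion molecule at 18.6 and 15.5 scaled TPM with vehicle and 82.6 and 91.2 with DHE, the changes were 2.32 and 1.97, and their difference did not pass (limma adjusted p = 0.26). ARRB1 (-1.17 and -1.06) and ERN1 (1.32 and 1.58) were further genes whose difference did not pass (0.66 and 0.51). Without the first GFP RNA library the difference was -2.45 for MYC, -2.26 for TREM2, 3.28 for AXL and -1.87 for BIK (limma adjusted p of 0.0026 to 0.0053), and it again did not pass for PECAM1, ARRB1 and ERN1 (0.11 to 0.51).

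**Figure D5:**
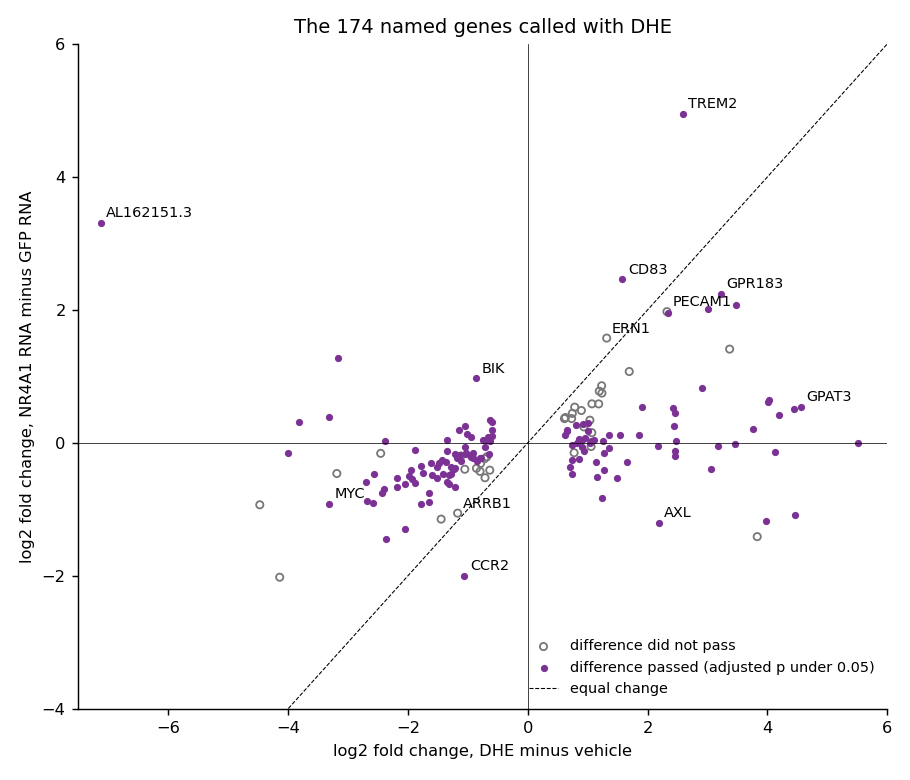
Log2 fold change with NR4A1 RNA (y axis, against GFP RNA) against that with DHE (x axis, against vehicle) for the 174 named genes called with DHE, filled purple where the difference passed and open where it did not. The genes were chosen on their DHE change, MYC lies at -3.32 with DHE, and TREM2 (2.59 with DHE, 4.95 with NR4A1 RNA) lies above the line of equal change.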

How the data were processed

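RNA from 8 libraries of MOLM-14 cells, with ribosomal RNA removed and the strand marked, was sequenced by the authors, trimmed with Trim Galore and quantified with Salmon 0.11.0. The deposited TPM are the authors' length-corrected shares, which are not scaled between libraries and keep no depth. The fold changes and p-values beside them were made by the authors with DESeq2 and were not used. ERCC controls were added to the RNA, and 0 of the table's entries are spike-ins. The ChIP-Seq libraries were not analysed here.

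TPM were divided by each library's median of ratios over entries at or above 1 TPM in all 8 libraries (factors 0.889 to 1.12) and are called scaled TPM. Log2 of scaled TPM + 0.5 was fitted with limma 3.58.1 (R 4.3.3) with 4 group means and a variance trend on the level (4 residual and 2.09 prior degrees of freedom). Tested entries had 1 TPM in at least 2 of the 4 vehicle and DHE libraries, p-values were adjusted over all of them, and calls needed adjusted p under 0.05 and a change over 1.5-fold. Fold changes are on the log2(scaled TPM + 0.5) scale, which understates changes of low genes. Where a symbol stood more than once (1449 repeats), its name stands for the entry with the highest mean. The fit was tested on simulated data.

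Named genes were the 12 largest rises and falls at a mean of 5 scaled TPM or more, up to 4 called members of each list by p, MYC and the NR4A genes, the 6 highest entries that appeared or vanished, and the 5 smallest p-values and 5 largest TPM changes each way. Other names were chosen after their values were seen. The gene lists and the comparison were chosen with earlier results of these data known, and the ISRE motif after the gene results were seen. Alternatives were other scalings, pseudocounts, filters, thresholds, fits and leaving out each library. Some genes are not reported here.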

Additional observations from a re-analysis of the deposited data

Results flagged for a closer look

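A difference between the DHE effect (against vehicle) and the NR4A1 RNA effect (against GFP RNA) was tested for every gene, and 2803 of 13582 passed (limma interaction, adjusted p under 0.05). The results below are the log2 DHE effect minus the log2 NR4A1 effect of the genes with the largest DHE changes where it passed, and of MYC and NR4A1. For TRGJP1, MIR7848, MIR6797, SNORD66 and MIR589, also among the largest changes, the difference did not pass (limma adjusted p of 0.057 to 0.32). The difference was -7.71 for NR4A1, whose value in the NR4A1 libraries counts the introduced RNA. It was -2.40 for MYC, and among the other large falls with DHE -2.12 for NOP16, -2.09 for RRP9, -1.80 for CD3EAP, -1.69 for RRS1, -1.68 for CCDC86 and -1.67 for TWNK. These genes also had negative fitted changes with NR4A1 RNA, of smaller size. Among the large rises the difference was 4.01 for GPAT3, 3.93 for STAT4, 3.77 for CRLF2, 3.55 for PKIB, 3.40 for CD86, 3.38 for SMOX and 1.41 for CCL24. For IQSEC3 (5.16), TRGJP2 (5.54) and RP11-452N17.1 (5.51) it was larger, the last of these with DHE libraries of 72.9 and 6.53 scaled TPM. It was -3.71 for SNORD51 and -10.44 for AL162151.3, entries that varied widely between libraries. Each group has 2 libraries, too few to look for outlying samples, and what underlies these differences was not tested.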

How the results depend on the processing

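Both directions stayed within 1.5 times their main counts (1319 higher, 1459 lower) under other scalings, pseudocounts, fits and no filter. Leaving out each library in turn gave 885 to 1424 genes called higher and 1136 to 1495 lower. A 5 TPM filter gave 784 higher. Adjusted p alone gave 2463 higher and 2621 lower, an adjusted p under 0.01 gave 829 higher, and a 2-fold limit 487 higher and 592 lower, as their construction implies. Upper quartile scaling and median of ratios over entries at or above 10 TPM moved the share of calls that were higher from 47.5% to 60.7% and 59.7%, with the median log2 fold change of all genes at 0.12 under both against 0.04, and the cause was not tested. Without the second DHE library and the first GFP RNA library together, chosen after seeing the data, 1062 were higher and 1542 lower. Of 174 named genes called, 115 kept their call under every setting that tested them, and none reversed. The labels do not say whether replicate numbers pair the samples. The vehicle and DHE replicate differences correlated at 0.028 across 13582 genes, which are not independent. A single difference in each group cannot settle whether samples were paired. A replicate block gave 1205 higher and 1427 lower. Depth is unknown, so low genes rest on the spread between 2 libraries a group. TMM scaling, also planned, was not run.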
